A study of Danio rerio with 6 samples.

Results

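Slow-twitch muscle cells were compared with neural crest cells from cyclopamine-treated embryos, both sorted from trunks of zebrafish at 24 hours post fertilization, by bulk RNA sequencing of 4 libraries. Every gene with at least 10 counts in at least 2 of these 4 libraries was taken, which gave 16507 of the 32520 genes in the count table. The slow muscle group (replicates 1 and 2) came from untreated embryos, and the cyclopamine crest group (replicates 3 and 4) from embryos exposed to cyclopamine at 100 µM, starting at 50% epiboly, an early gastrula stage, and lasting until collection. The remaining group, untreated neural crest (replicates 1 and 2), is used to set values side by side and, as part of the same fit, to estimate the spread between libraries. All embryos are given as wild type, were reared at 28 °C and carried both reporters, sox10:mRFP for neural crest and prdm1a:eGFP for slow muscle and the muscle pioneers, a subset of slow fibres. The sort therefore takes whatever cells are bright for a reporter, and prdm1a is also expressed outside slow muscle in the zebrafish embryo. No vehicle is stated for the untreated embryos, and the titles of the untreated crest libraries carry the word slow-twitch although their tissue is given as neural crest. Cell type and treatment differ together between slow muscle and cyclopamine crest and cannot be told apart in that comparison. The question addressed is which differences between muscle and crest are also present when the crest comes from embryos with blocked Hedgehog signalling.

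Hedgehog ligands from the notochord and floor plate bind Patched receptors, which frees Smoothened to activate the Gli transcription factors, and cyclopamine blocks Smoothened. In the zebrafish trunk this signal turns the adaxial cells beside the notochord into slow muscle through Prdm1a, and the highest exposure gives the Engrailed-expressing muscle pioneers. The neural crest arises at the edge of the neural plate under the control of Sox10, Foxd3 and Tfap2 factors, migrates through the trunk and forms black melanophores, yellow xanthophores, silver iridophores, glia and peripheral neurons. Slow fibres are told from fast fibres by their own myosin, troponin and tropomyosin genes. gli1, hhip and ptch1 are transcribed in response to Hedgehog and report the activity of the pathway in a cell.

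The libraries held 18781774 to 26441238 counts in these 4, and 15355583 to 17504692 in the untreated crest. Cyclopamine replicate 4 stood apart, with 13249 genes counted at least once against 15281 to 17275 in the other 5 libraries. In it 1164 genes were at 0 with at least 100 counts in cyclopamine replicate 3, and 421 genes showed the reverse. The rank correlation across tested genes was 0.81 between the cyclopamine replicates, 0.914 between the slow muscle replicates and 0.912 between the untreated replicates. A count of 0 allows up to 3 counts, which is 0.127 to 0.158 CPM (a count scaled by the size of its library to a common total) in the 4 libraries and up to 0.177 CPM in the untreated crest, for counting error only. Of the 16507 genes, 10618 had at least 10 counts in all 4 libraries, 1177 qualified through both slow muscle libraries alone and 327 through both cyclopamine libraries alone. The 22 genes just inside the limit, whose second highest count was 10, had a median summed count of 55, and the 27 genes just outside, at 9, had a median of 57. A low total in a bulk library cannot tell fewer cells of a type from less RNA per cell. Nothing in the labels ties the replicates to different pools of embryos, and the p-values then describe the spread among these libraries alone, which may be technical.

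Among the widest differences were muscle genes on the slow muscle side and crest and pigment genes on the cyclopamine crest side. With edgeR's quasi-likelihood test and a Benjamini-Hochberg adjusted p below 0.05 over the 17701 genes tested, 244 genes stood higher in slow muscle (1.38% of those tested) and another 141 stood lower (0.797%). Those genes are called higher or lower below. Of the 16507 genes 16478 were tested and 29 did not pass the test's filter on low counts, and every called gene belonged to the 16507. In all 244 and all 141 the groups did not overlap, as was also the case for 31.1% of tested genes in the higher and 21.8% in the lower direction. Among the 244 higher genes 62 had 0 counts in both cyclopamine libraries, and among the 141 lower genes 30 were at 0 in each slow muscle library. The median log2 fold change of all tested genes, slow muscle minus cyclopamine crest, was 0.12. Upper quartile scaling moved this median to -0.11 and the counts to 218 higher and 236 lower, so the balance of the directions depends on the scaling. Against untreated crest, which shares the slow muscle libraries, edgeR called 296 genes higher (1.67%) and 155 lower (0.876%), and DESeq2 called 1784 (10.1%) and 933 (5.27%).

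The calls rest on a spread shared by all 6 libraries. With edgeR none remained without slow muscle replicate 1 (1891 genes at an unadjusted p under 0.05), untreated replicate 1 (2777) or untreated replicate 2 (2777), and none when only the 4 compared libraries were fitted. In that last fit 3256 genes had an unadjusted p under 0.05, and the lowest adjusted p was 0.0978. Leaving out slow muscle replicate 2 gave 6 higher and 5 lower genes, leaving out cyclopamine replicate 4 gave 619 and 407, and leaving out cyclopamine replicate 3 gave 2076 and 957. DESeq2 called 1685 genes higher (9.52%) and 1029 lower (5.81%).

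**Figure D1:**
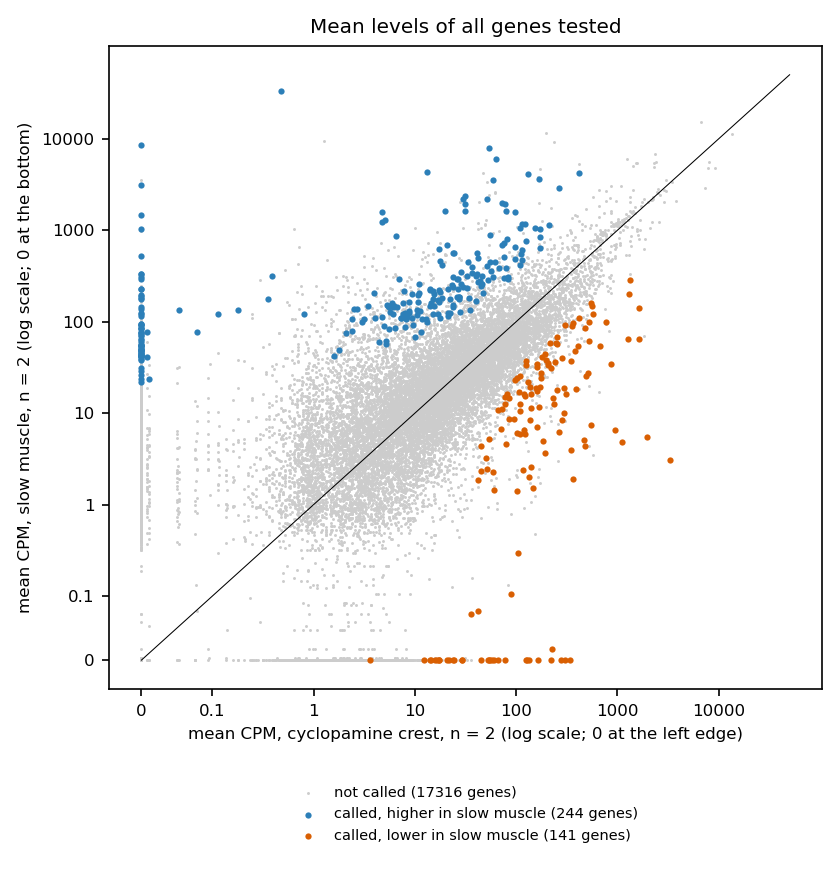
Mean CPM of each of the 17701 tested genes in cyclopamine crest (x axis, log scale, n = 2) and slow muscle (y axis, log scale, n = 2), with means of 0 drawn at the axis end and the line of equal level in black. The 244 genes called higher in slow muscle (blue) and the 141 called lower (orange) lie off the line, and 62 of the former sit at a cyclopamine level of 0.

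Both sorts carried the gene of their own reporter. The crest regulator gene sox10 (ENSDARG00000077467) stood at 1.90 and 4.22 CPM in the slow muscle replicates, 2616 and 4029 CPM in cyclopamine crest and 3293 and 3169 CPM in untreated crest. Every crest library lay far above both muscle libraries, and the treated and untreated crest overlapped. The log2 fold change, slow muscle minus cyclopamine crest, was -10.08 ± 0.71 (SE, as for every ± beside a fold change; adjusted p = 0.0141 in edgeR). prdm1a (ENSDARG00000002445), the slow fate regulator gene and itself a Hedgehog target in adaxial cells, stood at 1054 and 1062 CPM in slow muscle, 103 and 203 CPM in cyclopamine crest and 145 and 132 CPM in untreated crest. Muscle was higher without overlap, with a log2 fold change of 2.79 ± 0.42 (adjusted p = 0.0409 in edgeR), but its transcript was present in every crest library.

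Slow fibre genes were abundant in the slow muscle sort, and several were at 0 in cyclopamine crest. Of 13 slow fibre genes tested 8 were called higher and none lower, against 7 and none beside untreated crest. Their median log2 fold change was 12.83, or 11.23 with genes at 0 in a group set to their bound of 3 counts per library. smyhc1, a slow myosin heavy chain gene, stood at 45363 and 21652 CPM in slow muscle, 0.951 and 0 CPM in cyclopamine crest and 47.1 and 59.0 CPM in untreated crest. Its level was low in all crest libraries and lowest in the treated ones (slow muscle minus cyclopamine crest, adjusted p = 0.0262 in edgeR). myl13, a myosin light chain gene, followed with 12371 and 4489.7 CPM in slow muscle, 0 counts in both cyclopamine libraries and 10.8 and 8.10 CPM in untreated crest (edgeR adjusted p against cyclopamine crest = 0.0154). The slow troponin C gene tnnc1b (2248 and 678 CPM in slow muscle, adjusted p = 0.0489 in edgeR), the troponin I gene tnni1c (746 and 291 CPM, adjusted p = 0.0272 in edgeR) and the myosin gene smyhc3 (444 and 221 CPM, adjusted p = 0.0227 in edgeR) also had 0 counts in both cyclopamine libraries. In untreated crest tnni1c and smyhc3 were at 0 as well, and tnnc1b at 1.27 and 0 CPM. Between the crest groups DESeq2 called smyhc1 and myl13 lower in treated crest (adjusted p = 7.58e-09 and 1.67e-07), and edgeR did not (adjusted p = 0.79 and 0.458).

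Other slow fibre genes were detected in the crest at low levels. The tropomyosin gene tpm2 stood at 6172 and 2497 CPM in slow muscle against 16.5 and 9.86 CPM in cyclopamine crest, a log2 fold change of 8.36 ± 0.73 (adjusted p = 0.0159 in edgeR). prox1a, a transcription factor gene of slow fibre differentiation, stood at 154 and 92.3 CPM against 7.56 and 9.77 CPM (log2 fold change 3.83 ± 0.55, adjusted p = 0.0383 in edgeR). In both genes the groups were far apart, and untreated crest lay close to cyclopamine crest, at 20.2 and 24.5 CPM for tpm2 and 4.38 and 8.46 CPM for prox1a. The slow myosin gene smyhc2 did not pass, at 4865 and 2181 CPM in slow muscle and 0 counts in both cyclopamine libraries (adjusted p = 0.0744 in edgeR). Reads of the near-identical smyhc copies may have been split between them, and how reads with several mapping places were counted is not stated in the sources used here.

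The Engrailed genes that mark muscle pioneers, the fibres formed at the highest Hedgehog exposure, had no count in cyclopamine crest. en1a stood at 52.4 and 29.3 CPM in slow muscle, en1b at 52.5 and 10.6 CPM and en2a at 37.4 and 14.8 CPM, and all 3 were at 0 in both cyclopamine libraries. In untreated crest en1a was also at 0, while en1b stood at 1.69 and 3.02 CPM and en2a at 0 and 3.14 CPM. None of the 3 passed in edgeR (adjusted p = 0.0503, 0.0543 and 0.164), and DESeq2 called all of them higher in slow muscle.

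Sarcomere genes made up the broadest set on the muscle side. Of the 60 genes tested for the sarcomere and other muscle functions, 18 passed as higher than in cyclopamine crest and none as lower, with a median log2 fold change of 6.33 (6.14 with bounds), and beside untreated crest 19 were higher. Muscle lay above treated crest without overlap in 58 of the 60, against 31.1% of all tested genes. Of these, klhl41a, nrap, myoz2b and smpx were at 0 in every crest library. They passed the count filter through muscle alone, which fixed their direction, and how many more of the 60 did so was not counted. The alpha-actin gene ACTC1 (named so in the files, ENSDARG00000057911) is not one of the 60. It stood at 3859.6 and 2359 CPM in slow muscle, 0 counts in both cyclopamine libraries and 8.59 and 13.01 CPM in untreated crest (edgeR adjusted p against cyclopamine crest = 0.0141). acta1a, another skeletal actin gene, stood at 9945 and 5868 CPM in slow muscle against 54.5 and 52.2 CPM in cyclopamine crest and 34.1 and 48.0 CPM in untreated crest. Both crest groups lay far below muscle, with a log2 fold change of 7.21 ± 0.55 for muscle minus cyclopamine crest (adjusted p = 0.0152 in edgeR). Actin copies are near identical, so the split of reads among them is uncertain.

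Genes for assembling the sarcomere were called as well. klhl41a, which encodes a kelch protein of the sarcomere (439 and 180.1 CPM in slow muscle), the nebulin-related gene nrap (268 and 85.1 CPM), the Z-disc gene myoz2b (305 and 76.5 CPM), smpx (354 and 97.6 CPM), expressed in striated muscle, and the kinase gene alpk3b (383 and 203 CPM) had 0 counts in all crest libraries, treated or not. Their edgeR adjusted p for slow muscle minus cyclopamine crest were 0.0272, 0.0391, 0.0438, 0.0412 and 0.0219. myom1b, which encodes an M-band protein, was at 1604 and 470.2 CPM in slow muscle with 0 counts in cyclopamine crest (adjusted p = 0.0427 in edgeR). In all 6 genes slow muscle replicate 1 was the higher muscle library, as it was for the summed sarcomere list, at 87118 CPM against 42485 CPM in replicate 2.

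Between the crest groups DESeq2 called 4 of the 60 sarcomere genes higher in treated crest and 1, myom1b, lower, as it also called ACTC1 lower, and edgeR called none. Treated crest lay above untreated crest without overlap in 9 of the 60 and below it in 8. These counts were near the shares among all tested genes, 14.6% above and 16.6% below. The summed list stood at 2361 and 465 CPM in treated and 594 and 676 CPM in untreated crest, so that treated replicate 4 was the lowest library. The 4 higher genes were neb, actn3b, ldb3a and cav3. The thin filament gene neb stood at 2896 and 1516 CPM in slow muscle, 73.7 and 30.2 CPM in cyclopamine crest and 9.70 and 6.92 CPM in untreated crest. The alpha-actinin gene actn3b stood at 2552 and 1315 CPM, 39.4 and 22.5 CPM and 4.90 and 9.82 CPM in the same order. ldb3a, a Z-disc gene, stood at 875 and 508 CPM, 31.1 and 10.19 CPM and 2.85 and 5.74 CPM. In all 3 genes muscle lay above both crest groups, and both cyclopamine libraries lay above both untreated ones. The muscle caveolin gene cav3 showed the same order, at 293 and 146 CPM in muscle, 11.2 and 17.1 CPM in cyclopamine crest and 0 counts in untreated crest. Against cyclopamine crest the log2 fold changes of muscle were 5.41 ± 0.66 for neb, 5.97 ± 0.66 for actn3b, 5.07 ± 0.75 for ldb3a and 3.96 ± 0.55 for cav3 (adjusted p = 0.0272, 0.0227, 0.0405 and 0.0447 in edgeR). The difference between the crest groups did not pass in edgeR for any of the 4 (adjusted p between 0.45 and 0.835) and passed in DESeq2 for each.

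**Figure D2:**
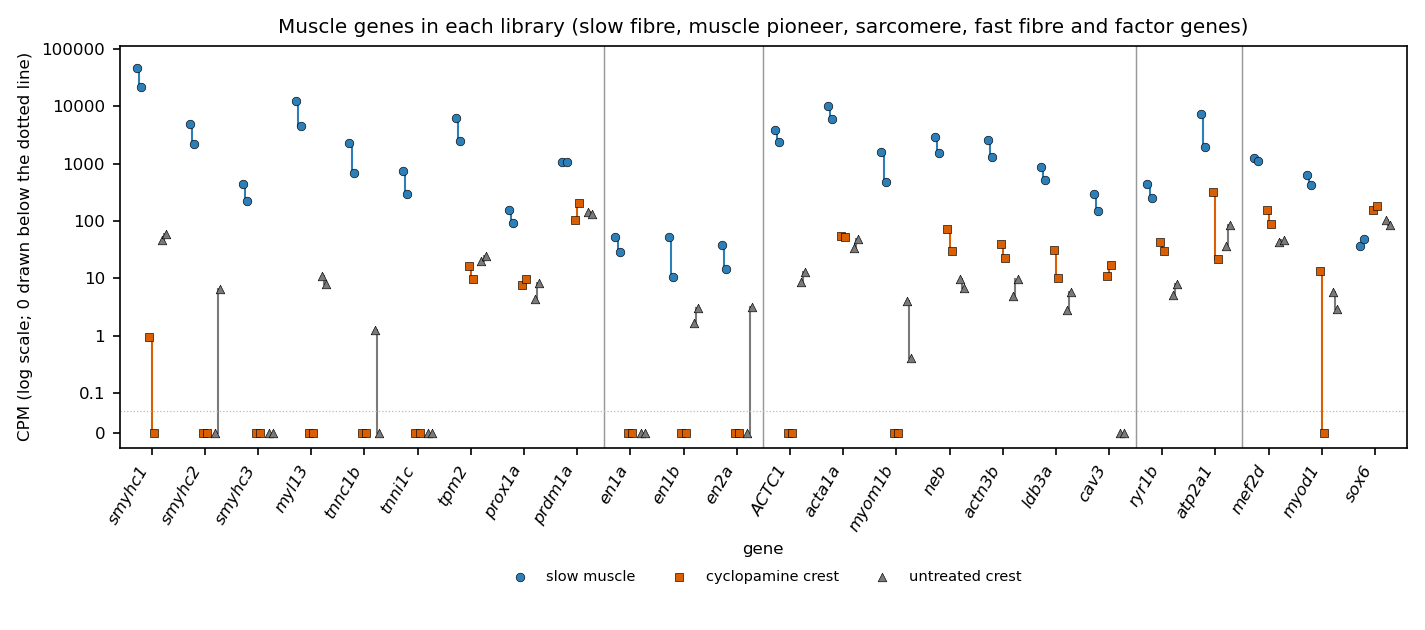
CPM (log scale, 0 drawn below the dotted line) of slow fibre, muscle pioneer, sarcomere, fast fibre and factor genes, from left to right between the grey lines, in each library (points, joined within a group) of slow muscle, cyclopamine crest and untreated crest. smyhc1 reaches 45363 and 21652 CPM in slow muscle, several genes are at 0 in both cyclopamine libraries, and sox6 alone among those drawn lies below the crest.

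edgeR called few fast fibre genes, while DESeq2 called 6 of 21 higher in muscle than in treated crest and 1 lower. Among all tested genes DESeq2 called 9.52% and 5.81%. Muscle lay above treated crest without overlap in 10 of the 21 and below in 1, against 31.1% and 21.8% of tested genes. Beside untreated crest these counts were 18 and 1, against 33.6% and 27.3%. The list of 21 tested also holds sox6 and en1b, the latter a muscle pioneer gene too. Of the 21, 1 was called higher and none lower, with a median log2 fold change of 1.49, and beside untreated crest 2 were called higher with a median of 3.74. ryr1b, which encodes a calcium release channel, was the called one, at 441 and 248 CPM in slow muscle, 43.6 and 29.6 CPM in cyclopamine crest and 5.11 and 7.87 CPM in untreated crest. The 3 groups did not overlap, and muscle exceeded cyclopamine crest by a log2 fold change of 3.23 ± 0.47 (adjusted p = 0.0391 in edgeR). The calcium pump gene atp2a1 stood at 7352 and 1958 CPM in slow muscle and 319 and 21.6 CPM in cyclopamine crest, where replicate 3 was the higher library (adjusted p = 0.156 in edgeR). Summed over the 21 genes, cyclopamine replicate 3 held 1257 CPM, replicate 4 held 432 CPM, and the untreated libraries held 256 and 340.5 CPM. Muscle held 12309 and 4538 CPM. The part of fast fibre transcripts of replicate 3 in these differences was not tested.

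Among 22 myogenic factors 3 were called higher and 3 lower. The higher ones were the myocyte enhancer factor genes mef2d and mef2cb and the homeobox gene six4a. mef2d stood at 1227 and 1117 CPM in slow muscle, 153 and 90.2 CPM in cyclopamine crest and 43.3 and 46.3 CPM in untreated crest, 3 groups without overlap (muscle minus cyclopamine crest, log2 fold change 3.27 ± 0.38, adjusted p = 0.0254 in edgeR). mef2cb had a log2 fold change of 3.03 ± 0.34 (adjusted p = 0.0228 in edgeR) and six4a of 3.90 ± 0.48 (adjusted p = 0.0272 in edgeR). The lower ones, pax3a, pax7a and pax7b, encode paired box factors of muscle progenitors that are also expressed in neural crest. pax7a stood at 226 and 228 CPM in cyclopamine crest and had a single count in slow muscle (adjusted p = 0.0141 in edgeR), and pax7b stood at 280.0 and 421 CPM against 5.06 and 2.79 CPM in muscle (log2 fold change -6.48 ± 0.51, adjusted p = 0.0154 in edgeR). The myogenic determination gene myod1 stood at 631 and 417 CPM in slow muscle and 13.5 and 0 CPM in cyclopamine crest, and did not pass (adjusted p = 0.183 in edgeR). sox6, a transcription factor gene that represses slow genes in fast fibres, stood at 35.9 and 49.2 CPM in slow muscle against 152 and 179.6 CPM in cyclopamine crest, with an edgeR adjusted p of 0.0506.

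Most neural crest specifier genes were lower in muscle than in treated crest. The log2 fold change was negative in 19 of the 25 tested and positive in 6. Muscle lay below treated crest without overlap in 14 and above it in 1, against 21.8% and 31.1% of all tested genes. Of 25 tested 8 were called lower and none higher, the same counts as beside untreated crest, and the median log2 fold change was -2.00. Besides sox10 they were crestin, tfap2a, tfap2b, tfap2e, zeb2a, foxd3 and ets1. The sox10 reporter chose the crest cells, so the higher level of sox10 in crest was set by the sort. crestin, a retroelement transcript used as a pan-crest marker in zebrafish, stood at 4.85 and 4.86 CPM in slow muscle, 1194 and 1012 CPM in cyclopamine crest and 656 and 809 CPM in untreated crest. Treated crest lay above untreated crest without overlap, as did 14.6% of all tested genes, and every crest library exceeded muscle (muscle minus cyclopamine crest, log2 fold change -7.83 ± 0.40, adjusted p = 0.0141 in edgeR). The AP-2 factor gene tfap2a stood at 22.8 and 45.8 CPM in muscle against 896 and 849 CPM in cyclopamine crest (log2 fold change -4.67 ± 0.46, adjusted p = 0.0192 in edgeR). tfap2b stood at 0.422 and 2.37 CPM against 68.2 and 134 CPM, and tfap2e at 0 and 0.591 CPM against 147 and 63.0 CPM, with edgeR adjusted p of 0.0412 and 0.0438. For both of them untreated crest lay above treated crest without overlap, as did 16.6% of all tested genes, at 162 and 197 CPM and 200.04 and 199 CPM, and neither crest difference passed in edgeR or DESeq2. The repressor gene zeb2a, the forkhead gene foxd3 and the ETS factor gene ets1 had log2 fold changes of -4.66 ± 0.41, -4.06 ± 0.40 and -3.20 ± 0.35 (adjusted p = 0.0159, 0.0185 and 0.0227 in edgeR).

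Melanophore genes were at or near 0 in slow muscle and present in treated crest. Of 16 tested, 13 of them among the 16507 genes, 7 were called lower in muscle and none higher, against 8 beside untreated crest. The median log2 fold change over the tested genes was -11.79, or -7.92 with bounds. tyr, the tyrosinase gene that starts melanin synthesis, stood at 389 and 166 CPM in cyclopamine crest and 601 and 494 CPM in untreated crest with 0 counts in both muscle libraries (muscle minus cyclopamine crest, adjusted p = 0.0155 in edgeR). The melanocyte master regulator gene mitfa stood at 393 and 45.9 CPM in cyclopamine crest, pmela, which encodes the fibril protein of the melanosome, at 280.5 and 48.3 CPM, and the melanosomal transporter gene slc45a2 at 187 and 69.7 CPM. These 3 were at 0 in muscle too (adjusted p = 0.0433, 0.0375 and 0.0184 in edgeR). In all 4 genes cyclopamine replicate 4 was the lower of the treated libraries. The channel gene trpm1b went the other way within the treated group, at 225 and 452 CPM (adjusted p = 0.0152 in edgeR), and the exchanger gene cax1 stood at 378 and 229 CPM (adjusted p = 0.0141 in edgeR). dct, which encodes a later melanin enzyme, stood at 62.2 and 3.24 CPM in cyclopamine crest and 189 and 135 CPM in untreated crest with 0 counts in muscle, and did not pass (adjusted p = 0.0832 in edgeR). tyrp1b, tested but outside the 16507 genes, stood at 122 and 0 CPM in the treated and 172 and 186 CPM in the untreated libraries.

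Summed over the 16 melanophore genes, the levels were 15.2 and 33.7 CPM in slow muscle, 2552 and 1206 CPM in cyclopamine crest and 3409 and 2983 CPM in untreated crest. Both treated libraries thus held less than both untreated ones and far more than muscle, and none of the 16 was called between the crest groups by edgeR or DESeq2.

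Xanthophore and iridophore genes gave the same order. Of 16 xanthophore genes tested, 14 of them among the 16507, 6 were called lower in muscle and none higher, with a median log2 fold change of -6.73 (-6.53 with bounds). Of the 6, pax7a and pax7b are also counted among the myogenic factors and atic among the iridophore genes. pts, an enzyme gene of pteridine synthesis, stood at 2.32 and 1.52 CPM in muscle, 444 and 291 CPM in cyclopamine crest and 829 and 684 CPM in untreated crest (muscle minus cyclopamine crest, log2 fold change -7.58 ± 0.49, adjusted p = 0.0141 in edgeR). xdh, the xanthine dehydrogenase gene, was at 0 in muscle and at 23.1 and 11.3 CPM and 56.5 and 50.9 CPM in treated and untreated crest (edgeR adjusted p against treated crest = 0.0253). The transporter gene slc2a15b had a log2 fold change of -6.58 ± 0.83 (adjusted p = 0.0298 in edgeR). gch2, the gene for the first enzyme of pteridine synthesis, stood at 1015 and 143 CPM in the treated and 1895 and 1902 CPM in the untreated libraries, with 0 and 6.93 CPM in muscle. The aldehyde oxidase gene aox5 stood at 649.9 and 395 CPM in treated and 1353 and 1387 CPM in untreated crest. Neither passed between muscle and treated crest (adjusted p = 0.149 for gch2 and 0.141 for aox5 in edgeR), nor did the receptor gene csf1ra (0.0583). The summed list stood at 151 and 228 CPM in muscle, 3591 and 2313 CPM in cyclopamine crest and 6463 and 6153 CPM in untreated crest.

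Iridophores store purine crystals, and their list holds purine synthesis genes. Of 14 tested, 13 of them among the 16507 genes, 6 were called lower in muscle and none higher, with a median log2 fold change of -4.18 (-3.95 with bounds). ltk, a receptor gene needed for iridophore fate, stood at 66.1 and 184 CPM in treated crest with 0 counts in muscle (adjusted p = 0.0192 in edgeR). Its treated libraries overlapped with the untreated ones, which stood at 71.3 and 83.2 CPM. impdh1b, an enzyme gene of guanine nucleotide synthesis, stood at 65.5 and 65.4 CPM in muscle, 1928 and 635 CPM in treated and 2757 and 2841 CPM in untreated crest (muscle minus treated crest, log2 fold change -4.29 ± 0.62, adjusted p = 0.0391 in edgeR). The purine synthesis genes gart and atic had log2 fold changes of -3.83 ± 0.32 and -4.49 ± 0.70 (adjusted p = 0.0154 and 0.0438 in edgeR). pnp4a, a purine enzyme gene used as an iridophore marker, stood at 66.8 and 4.88 CPM in treated crest and 0 in muscle, and did not pass (adjusted p = 0.0681 in edgeR).

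**Figure D3:**
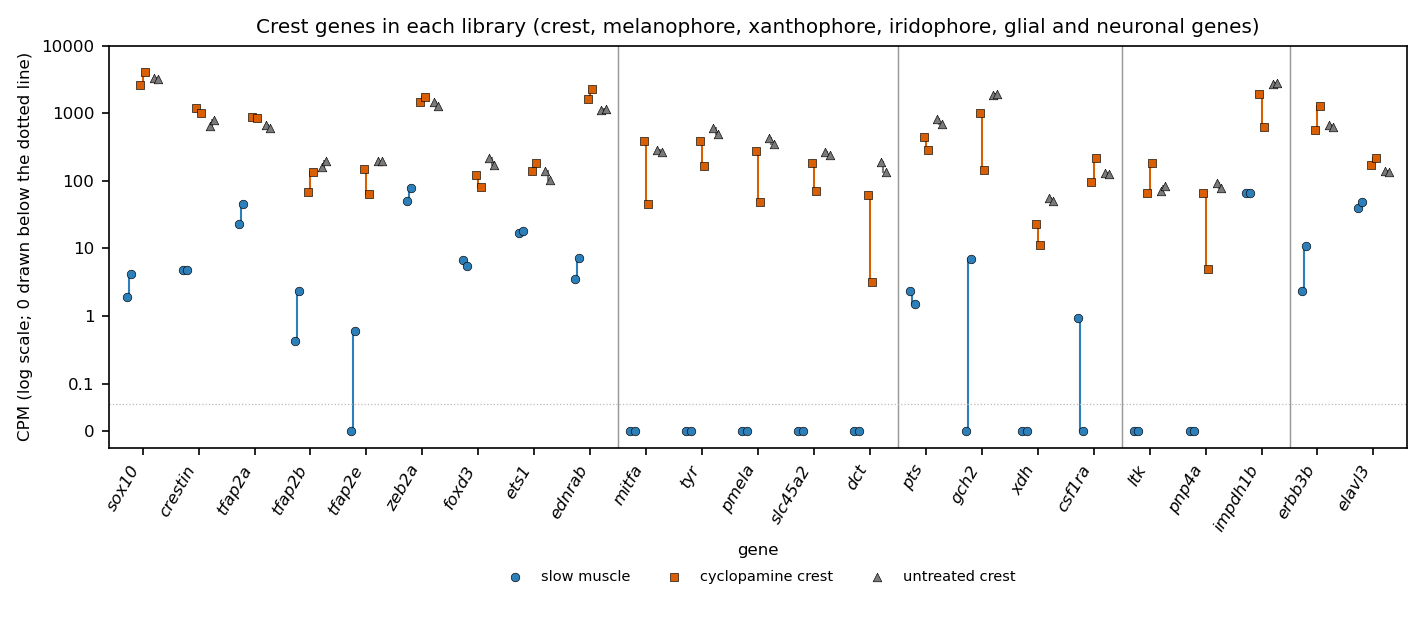
CPM (log scale, 0 drawn below the dotted line) of crest, melanophore, xanthophore, iridophore, and glial and neuronal genes, from left to right between the grey lines, in each library (points, joined within a group). Muscle lies below both crest groups in every gene drawn, and cyclopamine replicate 4 lies below replicate 3 in most pigment genes, as in gch2 at 1015 and 143 CPM.

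Few glial or neuronal genes passed. Of 13 glial genes 1 was called lower in muscle and 1 higher. The lower one was the neuregulin receptor gene erbb3b, at 2.32 and 10.9 CPM in muscle against 574 and 1296 CPM in treated crest (log2 fold change -7.14 ± 0.97, adjusted p = 0.0365 in edgeR). The higher one was egr2a, a zinc finger factor gene, at 56.6 and 57.1 CPM in muscle, 4.35 and 6.01 CPM in treated and 19.1 and 24.5 CPM in untreated crest (muscle minus treated crest, log2 fold change 3.45 ± 0.49, adjusted p = 0.0379 in edgeR). Of 24 sensory and sympathetic neuron genes, 22 of them among the 16507, 1 was called lower, the RNA-binding protein gene elavl3, at 39.7 and 48.0 CPM against 169 and 220.5 CPM (log2 fold change -2.15 ± 0.31, adjusted p = 0.0391 in edgeR). The axonal contactin gene cntn2 stood at 7.65 and 3.08 CPM against 35.9 and 84.6 CPM with an edgeR adjusted p of 0.0638.

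Among Hedgehog target genes the treated crest was the lowest of the 3 groups for gli1 and hhip. Of 9 tested 2 were called higher than in cyclopamine crest and none lower, with a median log2 fold change of 2.79, and beside untreated crest 1 was, with a median of 1.77. gli1, the Gli factor gene that Hedgehog itself induces, stood at 128 and 120.5 CPM in slow muscle, 16.8 and 27.6 CPM in cyclopamine crest and 43.6 and 46.9 CPM in untreated crest. The 3 groups did not overlap, and muscle exceeded treated crest by a log2 fold change of 2.49 ± 0.39 (adjusted p = 0.0438 in edgeR) and untreated crest by 1.46 ± 0.37 (adjusted p = 0.113 in edgeR). The difference between the crest groups did not pass (adjusted p = 0.835 in edgeR and 0.513 in DESeq2). The other called target was prdm1a, whose reporter chose the muscle cells, so that its higher level in muscle was set by the sort, here and in the slow fibre count.

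hhip, which encodes a membrane protein that binds Hedgehog ligands and restrains the pathway, had the same order with a lower treated level. It stood at 163 and 130.5 CPM in slow muscle, 5.71 and 0.705 CPM in cyclopamine crest and 26.2 and 27.2 CPM in untreated crest. Muscle exceeded treated crest by a log2 fold change of 5.51 ± 1.02, just outside the threshold (adjusted p = 0.0597 in edgeR and 2.23e-08 in DESeq2), and treated minus untreated crest was -3.05 ± 0.91 (adjusted p = 0.835 in edgeR and 0.0377 in DESeq2). The receptor gene ptch1 stood at 57.4 and 77.3 CPM in slow muscle, 34.96 and 55.5 CPM in cyclopamine crest and 51.3 and 53.1 CPM in untreated crest. The muscle libraries lay above the treated ones by a log2 fold change of 0.57 ± 0.39, which did not pass (adjusted p = 0.444 in edgeR).

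Of 25 Hedgehog pathway components tested, 24 of them among the 16507 genes, none was called against treated crest by edgeR or DESeq2, and the median log2 fold change was -0.04. Beside untreated crest edgeR also called none, with a median of 0.61, and DESeq2 called 4 higher. Treated crest lay above untreated crest without overlap in 14 of the 25 and below it in none. Among all tested genes these shares were 14.6% and 16.6%. For the crest groups edgeR called none of the 25, and DESeq2 called 2 higher in treated crest. The co-receptor genes cdon and boc encode membrane proteins that bind Hedgehog ligands. cdon stood at 198 and 169.8 CPM in slow muscle, 168 and 261 CPM in cyclopamine crest and 100.9 and 140.1 CPM in untreated crest. Muscle and treated crest overlapped and both lay above untreated crest (muscle minus treated crest, log2 fold change -0.22 ± 0.35, adjusted p = 0.801 in edgeR). That sign turned without cyclopamine replicate 4, to 0.13. boc stood at 94.3 and 113 CPM, 89.1 and 76.6 CPM and 62.9 and 57.1 CPM in the same order of groups, without overlap, and muscle minus treated crest did not pass (log2 fold change 0.32 ± 0.30, adjusted p = 0.614 in edgeR).

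The transducer and Gli genes went in both directions, and none passed. smo, which encodes the protein that cyclopamine blocks, stood at 75.0 and 127 CPM in muscle, 145 and 145 CPM in treated crest and 131 and 129 CPM in untreated crest (muscle minus treated crest, log2 fold change -0.52 ± 0.34, adjusted p = 0.433 in edgeR). sufu and kif7, regulators of the Gli proteins, had log2 fold changes of -0.65 ± 0.36 and -0.58 ± 0.36 (adjusted p = 0.357 and 0.413 in edgeR). gli2a, a Gli activator gene, stood at 193 and 199 CPM in muscle, 265 and 493 CPM in treated and 149 and 118 CPM in untreated crest, so that muscle lay between the crest groups. Muscle minus treated crest was -0.95 ± 0.38 and muscle minus untreated crest 0.56 ± 0.38 (adjusted p = 0.249 and 0.461 in edgeR). gli3, whose protein acts mostly as a repressor, stood at 17.5 and 7.56 CPM in muscle against 25.7 and 48.7 CPM (log2 fold change -1.57 ± 0.66, adjusted p = 0.262 in edgeR). gli2b, a second gli2 copy, stood at 59.9 and 61.6 CPM in muscle against 29.4 and 20.8 CPM in treated and 7.22 and 12.5 CPM in untreated crest, 3 groups without overlap (muscle minus treated crest, log2 fold change 1.28 ± 0.47, adjusted p = 0.224 in edgeR). gas1a, which encodes a further Hedgehog-binding membrane protein, stood at 53.3 and 78.6 CPM in muscle and 64.7 and 15.8 CPM in treated crest, where the groups overlapped (adjusted p = 0.637 in edgeR). The secreted SCUBE protein gene scube1 stood at 19.4 and 21.5 CPM in muscle, 13.3 and 25.6 CPM in treated and 1.69 and 3.14 CPM in untreated crest, where DESeq2 called it higher in treated crest. The ligand genes were low in muscle, shha at 1.63 and 7.14 CPM and ihhb at 0 and 0.591 CPM.

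**Figure D4:**
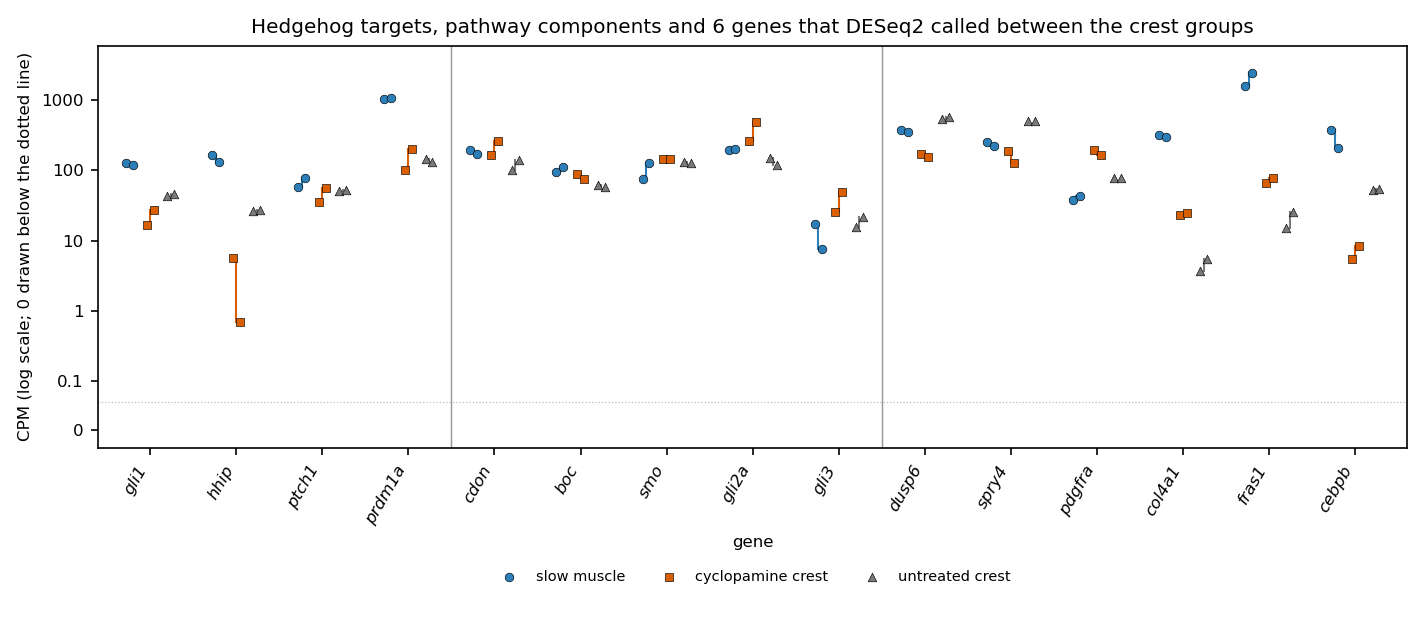
CPM (log scale) of Hedgehog target genes (left), pathway components (middle) and 6 genes that DESeq2 alone called between the crest groups (right), in each library (points, joined within a group). gli1 and hhip run from slow muscle through untreated to cyclopamine crest. The groups lie closer together for cdon, boc and smo, with those of boc not overlapping and untreated crest lowest for cdon.

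The difference between the 2 sets of values is the difference between the crest groups, since the slow muscle libraries serve both. edgeR called no gene between treated and untreated crest out of 17701, with 767 genes at an unadjusted p under 0.05 and a lowest adjusted p of 0.45. DESeq2 called 146 genes higher in treated crest (0.825%) and 148 lower (0.836%). No gene called between muscle and treated crest therefore has a difference from its untreated value that edgeR called. The genes described next are among those that DESeq2 called.

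Between the crest groups DESeq2 called 11 of 64 matrix genes higher in treated crest and none lower. The summed list stood at 8323 CPM in treated replicate 3, 22712 CPM in treated replicate 4 and 7334 and 7541 CPM in untreated crest. The list member col2a1a, given below, was high in replicate 4 and made up only part of that sum. fras1, which encodes a basement membrane protein, stood at 1604 and 2407 CPM in muscle, 66.8 and 76.8 CPM in treated crest and 15.02 and 25.7 CPM in untreated crest. The collagen gene col4a1 stood at 315 and 302 CPM, 23.2 and 24.4 CPM and 3.64 and 5.50 CPM. In both genes the 3 groups were separate, with treated crest between muscle and untreated crest. Treated minus untreated crest was 1.82 ± 0.41 for fras1 and 2.38 ± 0.34 for col4a1 (DESeq2 adjusted p = 0.00215 and 1.53e-06, adjusted p = 0.79 and 0.512 in edgeR). pdgfra, a receptor gene for platelet-derived growth factor in migrating crest, was lowest in muscle at 38.3 and 43.6 CPM and stood at 192 and 164 CPM in treated and 78.2 and 77.4 CPM in untreated crest. It was called lower in muscle than in treated crest (log2 fold change -2.12 ± 0.30, adjusted p = 0.0379 in edgeR) and not than in untreated crest (adjusted p = 0.169 in edgeR). Treated minus untreated crest was 1.196 ± 0.29 (adjusted p = 0.835 in edgeR and 0.00736 in DESeq2).

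Of 30 Fgf and ERK feedback genes, 29 of them among the 16507, DESeq2 called 3 lower and 2 higher in treated than in untreated crest. dusp6, which encodes an ERK phosphatase, stood at 377 and 356 CPM in muscle, 169.7 and 157 CPM in treated and 548 and 579 CPM in untreated crest. spry4, a Sprouty inhibitor gene, stood at 255 and 222 CPM, 191 and 127 CPM and 508 and 502 CPM. In both muscle lay above the treated and below the untreated libraries without overlap. Neither passed in edgeR between muscle and treated crest (log2 fold change 1.16 ± 0.27, adjusted p = 0.0943 for dusp6, and 0.58 ± 0.32, adjusted p = 0.354 for spry4). edgeR called none of the 30 between muscle and treated crest.

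Among 34 immediate early and heat shock genes edgeR called 4 higher in muscle than in treated crest and none lower. Beside untreated crest it called 1 higher. Against treated crest DESeq2 called 9 higher and 1 lower, and the shares of all tested genes were 9.52% and 5.81%. The summed list differed little, at 15880 and 13660 CPM in muscle, 13070 and 12703 CPM in treated and 14953 and 15609 CPM in untreated crest. cebpb, a stress-induced transcription factor gene, stood at 378 and 207 CPM in muscle, 5.48 and 8.45 CPM in treated and 53.3 and 54.4 CPM in untreated crest. Treated crest was the lowest group, and muscle exceeded it by a log2 fold change of 5.39 ± 0.49 (adjusted p = 0.0181 in edgeR), while treated minus untreated crest was -2.95 ± 0.44 (adjusted p = 0.584 in edgeR and 1.27e-05 in DESeq2). fosb had a log2 fold change of 3.18 ± 0.47, the antiproliferative gene btg2 of 2.58 ± 0.35 and ier2b of 2.78 ± 0.33, muscle minus treated crest (adjusted p = 0.0409, 0.0363 and 0.0259 in edgeR).

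Transcripts of other tissues of the trunk were also found in the slow muscle libraries. The sums of 6 of the 10 lists drawn were higher in both muscle libraries than in every crest library, among them the pronephric (326 and 555 CPM in muscle) and presomitic (491 and 449.5 CPM) lists. Of 26 epidermal genes 1 was called higher, krt97, a keratin gene, at 987 and 1622 CPM in muscle against 6.52 and 3.62 CPM in treated crest (log2 fold change 8.01 ± 0.57, adjusted p = 0.0141 in edgeR). The summed list stood at 12291 and 17006 CPM in muscle, 2694 and 1843 CPM in treated and 2033 and 1697 CPM in untreated crest. Ionocytes are the salt-transporting cells of the skin, and 3 of their 10 genes were called higher. The regulator genes foxi3a (174 and 279 CPM in muscle) and gcm2 (116 and 162 CPM) had 0 counts in all crest libraries, with edgeR adjusted p of 0.0192 and 0.0203 against treated crest, and the carbonic anhydrase gene ca2 had a log2 fold change of 5.69 ± 0.59 (adjusted p = 0.0192 in edgeR).

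Endothelial genes lay higher in both muscle libraries than in both treated ones in all 24 tested, against 31.1% of all tested genes. Of them 5 were called higher and none lower, and the median log2 fold change was 3.45. etv2, the vascular specifier gene, stood at 175 and 237 CPM in muscle against 12.8 and 9.06 CPM in treated crest (log2 fold change 4.24 ± 0.40, adjusted p = 0.0184 in edgeR). The blood and vessel factor gene lmo2 stood at 152 and 144 CPM against 4.94 and 5.87 CPM (log2 fold change 4.77 ± 0.75, adjusted p = 0.0438 in edgeR). fli1a, clec14a and mrc1a were also called, with log2 fold changes of 2.44 ± 0.33, 3.45 ± 0.57 and 3.45 ± 0.41 (adjusted p = 0.036, 0.0477 and 0.026 in edgeR). The summed list stood at 5409 and 6057 CPM in muscle, 272 and 835 CPM in treated and 1012 and 998 CPM in untreated crest. Pronephric genes had 1 of 14 called higher, the sodium pump gene atp1a1a.4 (log2 fold change 3.74 ± 0.59, adjusted p = 0.0438 in edgeR), and the kidney cadherin gene cdh17 had an adjusted p of 0.0554. None was called among 16 erythroid, 12 myeloid, 27 spinal cord, 18 presomitic and 11 sclerotome genes, by edgeR in either direction. Summed levels were 146 and 109 CPM in muscle against 171 and 64.3 CPM in treated crest for the erythroid list, and 805 and 802 CPM against 288 and 301 CPM for the sclerotome list.

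Of 13 notochord and floor plate genes edgeR called none, and the 2 treated libraries differed widely. DESeq2 called 2 of the 13 higher and 1 lower in muscle than in treated crest, against 9.52% and 5.81% of all tested genes. The summed list of 13 genes stood at 1027 and 959 CPM in muscle, 160 CPM in cyclopamine replicate 3, 4411 CPM in cyclopamine replicate 4 and 175 and 157 CPM in untreated crest. The cartilage and notochord collagen gene col2a1a stood at 83.1 and 56.0 CPM in muscle, 91.8 and 3584 CPM in the treated and 77.6 and 59.3 CPM in the untreated libraries. Replicate 4 alone was high, and the same was seen for col8a1a (8.74 and 415 CPM in the treated libraries), the notochord factor gene tbxta (6.02 and 173 CPM) and the ligand gene shha (6.39 and 79.0 CPM). The fitted changes of muscle minus treated crest for tbxta and col8a1a were -2.39 ± 1.36 and -2.26 ± 1.45 and turned to 1.497 and 2.34 without replicate 4. The notochord transcript ntd5 was high in muscle, at 649.9 and 725 CPM against 9.15 and 98.3 CPM (adjusted p = 0.153 in edgeR).

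**Figure D5:**
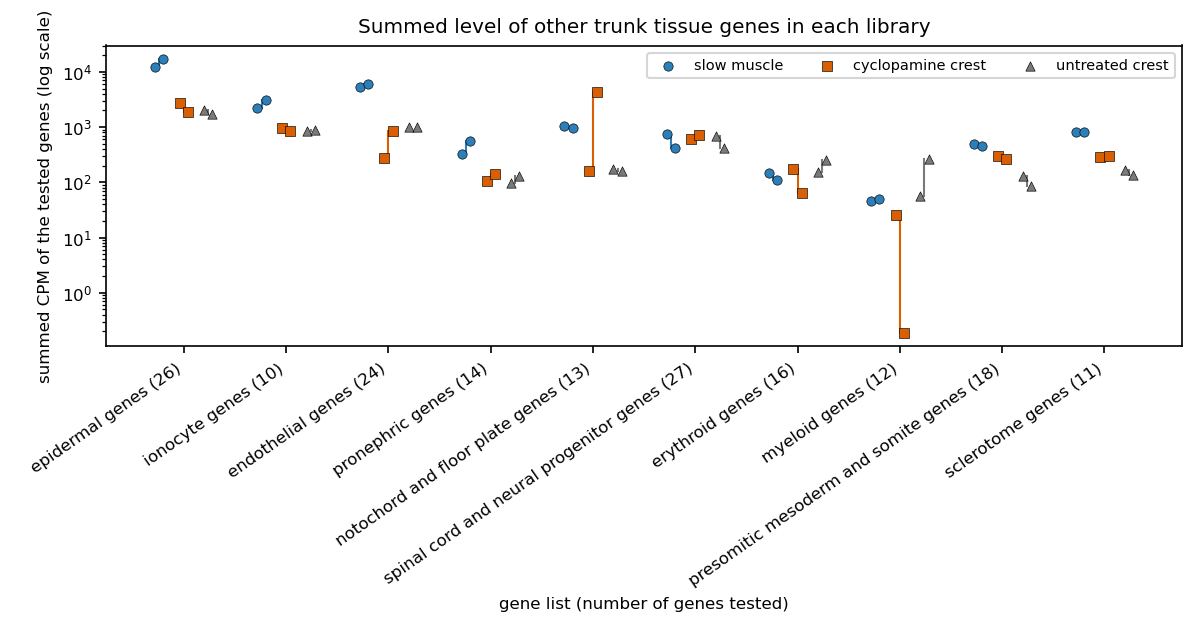
Summed CPM (log scale) of the tested genes of 10 lists for other trunk tissues, with the number of genes in brackets, in each library (points, joined within a group). Epidermal, ionocyte, endothelial, pronephric, presomitic and sclerotome sums are higher in both slow muscle libraries than in every crest library, and the notochord and floor plate sum is high in cyclopamine replicate 4 at 4411 CPM.

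Of 64 extracellular matrix genes 8 were called higher by edgeR and none lower, with a median log2 fold change of 1.25, and beside untreated crest 14 were, with a median of 2.49. The basement membrane genes fras1 and frem2a act together in the Fraser complex. frem2a stood at 1362 and 2999 CPM in muscle against 39.0 and 21.1 CPM in treated crest, and fras1 exceeded its treated level by a log2 fold change of 4.80 ± 0.47 (adjusted p = 0.0192 and 0.0184 in edgeR). The tenascin gene tnc stood at 1681 and 1489.9 CPM against 80.4 and 116 CPM (log2 fold change 4.01 ± 0.36, adjusted p = 0.0166 in edgeR), and the versican gene vcana at 157 and 295 CPM against 15.8 and 12.5 CPM (log2 fold change 3.998 ± 0.62, adjusted p = 0.0438 in edgeR). The dystroglycan gene dag1, the integrin gene itga3b, the collagen gene col4a1 and sparc were the others, with log2 fold changes of 2.76 ± 0.30, 3.55 ± 0.47, 3.70 ± 0.35 and 2.29 ± 0.36 (adjusted p = 0.0223, 0.0346, 0.0184 and 0.0438 in edgeR). Skin and vessel cells also make matrix, and the epidermal and endothelial sums given above were higher in muscle too. The endothelial sum stood at 272 and 835 CPM in treated and 1012 and 998 CPM in untreated crest. The epidermal sum stood at 2694 and 1843 CPM in treated and 2033 and 1697 CPM in untreated crest, where the groups overlapped. The part of skin and vessel cells in the matrix differences was not tested.

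Genes for migration and guidance went both ways. Of the 61 tested, muscle lay above treated crest without overlap in 32 and below it in 13, against 31.1% and 21.8% of all tested genes. DESeq2 called 14 higher and 9 lower, against 9.52% and 5.81%. Beside untreated crest edgeR called 6 higher and 1 lower. Beside treated crest edgeR called 1 of the 61 higher in muscle and 3 lower, against 1.38% and 0.797% of all tested genes. The ephrin receptor gene epha2a was the higher one, at 588 and 542 CPM in muscle against 9.69 and 38.7 CPM in treated crest (log2 fold change 4.54 ± 0.72, adjusted p = 0.0438 in edgeR). ednrab, an endothelin receptor gene of migrating crest, stood at 3.59 and 7.31 CPM in muscle, 1605 and 2277 CPM in treated and 1104 and 1172 CPM in untreated crest (muscle minus treated crest, log2 fold change -8.47 ± 0.60, adjusted p = 0.0141 in edgeR). The ephrin receptor gene ephb3a and pdgfra were the other lower ones, ephb3a with a log2 fold change of -2.69 ± 0.41 (adjusted p = 0.0433 in edgeR). Of 20 cadherin genes 2 were called lower in muscle, the protocadherin genes pcdh9, at 138 and 128 CPM in treated crest and 0 counts in muscle (adjusted p = 0.0141 in edgeR), and pcdh10b, at 7.70 and 24.9 CPM against 245 and 374 CPM (log2 fold change -4.25 ± 0.66, adjusted p = 0.0438 in edgeR). Both jag2 genes, Notch ligands, were the 2 called higher among 30 Notch genes, jag2a by a log2 fold change of 5.04 ± 0.51 and jag2b by 2.95 ± 0.33 (adjusted p = 0.0192 and 0.0228 in edgeR). lef1, a transcription factor gene of the Wnt response, was the only one called among 33 Bmp and Wnt response genes, at 23.2 and 39.3 CPM in muscle against 179 and 266 CPM (log2 fold change -2.83 ± 0.41, adjusted p = 0.0395 in edgeR).

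edgeR called few energy metabolism genes, while DESeq2 called 20 of 36 glycolytic and 32 of 38 oxidative phosphorylation genes higher in muscle. Of the 36, DESeq2 called 1 lower. Among all tested genes DESeq2 called 9.52% higher and edgeR 1.38%. Muscle lay above treated crest without overlap in 29 of the 36 and 35 of the 38, against 31.1% of all tested genes. It lay below in 2 of the 36. The median log2 fold change of the 38 was 1.85 (1.83 with bounds). Of 36 glycolytic and phosphagen enzyme genes, 35 of them among the 16507, 2 were called higher and none lower, with a median log2 fold change of 3.10. They were the phosphofructokinase gene pfkpa, at 224 and 74.6 CPM in muscle, 3.49 and 3.43 CPM in treated crest and 0 counts in untreated crest, and the muscle enolase gene eno3, at 1022 and 367 CPM, 67.1 and 78.1 CPM and 133 and 114 CPM. Their log2 fold changes against treated crest were 5.43 ± 0.73 and 3.26 ± 0.55 (adjusted p = 0.0438 and 0.0495 in edgeR). Of 38 oxidative phosphorylation genes, 37 of them among the 16507, 2 were called higher, the ATP synthase gene atp5mc1 and the complex I gene ndufv1 (log2 fold changes 3.19 ± 0.40 and 2.04 ± 0.30, adjusted p = 0.0295 and 0.0395 in edgeR). None of the 13 mitochondrially encoded genes was called by edgeR, 12 were by DESeq2, and all 13 lay higher in both muscle libraries than in both treated ones. Their summed level was 56911 and 40642 CPM in muscle, 20836 and 10550 CPM in treated and 23246 and 25478 CPM in untreated crest. Cyclopamine replicate 4 had the lowest sum.

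No cell cycle gene of 40 was called by edgeR, while DESeq2 called 7 lower in muscle, and the median log2 fold change was -0.81. Among all tested genes DESeq2 called 5.81% lower. Muscle lay below treated crest without overlap in 19 of the 40 and above it in 2, against 21.8% and 31.1% of all tested genes. mcm7, a DNA helicase gene, stood at 96.7 and 108 CPM in muscle against 312 and 299 CPM in treated crest (log2 fold change -1.58 ± 0.30, adjusted p = 0.0638 in edgeR), and mki67, a proliferation marker, at 187 and 242 CPM against 388 and 591 CPM (log2 fold change -1.19 ± 0.34, adjusted p = 0.144 in edgeR). None of 16 p53 and 28 cholesterol synthesis genes was called by edgeR. Of 17 xenobiotic response genes 2 were called higher in muscle, the transporter gene abcb5 (90.6 and 157 CPM against 0 counts in treated crest, adjusted p = 0.0445 in edgeR) and the quinone reductase gene nqo1 (log2 fold change 4.55 ± 0.62, adjusted p = 0.0363 in edgeR).

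The largest fitted falls by the rule for named genes came from the pigment lists in 7 of 10 genes. Besides trpm1b, cax1, tyr, mitfa, pmela, pcdh9, slc45a2 and ltk they were the RNA-binding protein gene qkib, at 33.9 and 121 CPM in treated crest, and the kinase gene dclk1b, at 62.4 and 68.8 CPM. All 10 had 0 counts in both muscle libraries, and in dclk1b the treated libraries lay above the untreated ones at 12.97 and 24.5 CPM. The largest fitted rises were myl13, ACTC1, tnnc1b, myom1b, tnni1c, smyhc1, smyhc3, klhl41a, alpk3b and foxi3a. Each of them except smyhc1 had 0 counts in both treated libraries, and foxi3a is the one of them that is not a muscle gene.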

How the data were processed

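The study measured polyA RNA of sorted trunk cells by paired-end stranded RNA sequencing, with 6 libraries in 3 groups of 2. The authors deposited raw counts per gene for all 6 libraries, and per the submitters' processing notes STAR, featureCounts from Subread and DESeq2 were used, with no versions. The genome build, annotation, strand setting and treatment of reads with several mapping places were not given in the sources used here. A deposited table of the authors' log2 values was not used here.

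Groups and replicate numbers were taken from the labels. All 6 libraries entered a single edgeR 4.0.16 quasi-likelihood fit on the deposited counts (R 4.3.3, TMM scaling, filterByExpr on the 3 groups, no covariate), tested two-sided with Benjamini-Hochberg adjustment over 17701 genes at a threshold of 0.05. The fitted common dispersion (1.132) and prior degrees of freedom (2.94) reflect the spread of all 3 groups. CPM values are counts over the TMM-scaled library size. A fold change is not given where a group had 0 counts in both libraries, and list medians are then also given with such genes at a bound of 3 counts per library. Total counts per library ran from 15355583 to 26441238. The fit was tested on simulated data. Alternatives were other filters, RLE and upper quartile scaling, DESeq2 1.42.0, limma 3.58.1 voom, robust dispersions, the 4 compared libraries alone, a replicate block and each library left out. DESeq2 gave no adjusted p for some genes, which count as not called there.

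The 37 gene lists held 986 entries, of which 959 matched the files' symbols, 5 an older symbol and 22 none, and some genes stand in more than 1 list. The members and the lists were chosen with earlier results of these data known. Genes were named by a rule: sox10, prdm1a, cdon, boc and the Hedgehog lists, the 10 largest fitted changes each way among called genes with at least 10 CPM and no overlap, and up to 4 genes of each list, called ones first. No gene qualified by the last part of the rule, calls shared with the contrast of the crest groups. Genes named beyond these, chiefly other members of the lists, were chosen after their values were seen. One of the genes so named is left out here.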

Additional observations from a re-analysis of the deposited data

Results flagged for a closer look

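In 3 of the named genes slow muscle lay between the crest groups, without overlap with either. The sign of the muscle difference thus turned between treated and untreated crest. Only named genes were searched, and the share of all tested genes that turned in this way was not counted. Without overlap, muscle lay above treated crest in 31.1% of tested genes and below it in 21.8%. Against untreated crest the shares were 33.6% and 27.3%. For dusp6 (377 and 356 CPM in muscle, 169.7 and 157 CPM in treated and 548 and 579 CPM in untreated crest) the difference between the contrasts, treated minus untreated crest, was -1.78 on the log2 scale. For spry4 it was -1.67, from 255 and 222 CPM in muscle, 191 and 127 CPM in treated and 508 and 502 CPM in untreated crest. For gli2a it was 1.51, from 193 and 199 CPM, 265 and 493 CPM and 149 and 118 CPM in the same order. edgeR did not call any of these differences (adjusted p = 0.584, 0.75 and 0.835) and DESeq2 called all 3 (adjusted p = 4.89e-10, 7.69e-05 and 0.0396).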

How the results depend on the processing

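All 385 genes called between slow muscle and cyclopamine crest (244 higher, 141 lower) kept their sign under every alternative run, while the number of calls moved. In each of the 385 the groups did not overlap, so the sign was largely fixed in advance and its keeping is no separate support. In the order higher and lower, edgeR called 833 and 444 with no filter, 258 and 163 with at least 50 counts in 2 libraries, 268 and 139 with RLE scaling, 218 and 236 with upper quartile scaling, 366 and 243 with robust dispersions and 0 and 0 with the 4 compared libraries alone. DESeq2 called 1685 and 1029 and limma voom 142 and 119. Of the 385 genes 384 were called by DESeq2 and 169 by limma voom. Against untreated crest (296 and 155) the counts in the same order were 981 and 427 with no filter, 266 and 242 with upper quartile scaling, 439 and 249 with robust dispersions, 1784 and 933 with DESeq2 and 2482 and 1047 with limma voom. Between the crest groups edgeR called 0 and 0, 8 and 13 with no filter, and DESeq2 called 146 and 148. Leaving out each library in turn gave from 0 to 2076 higher and 0 to 957 lower genes against cyclopamine crest, 0 to 1556 and 0 to 797 against untreated crest, and 0 to 145 and 0 to 450 between the crest groups, the last without cyclopamine replicate 3. A group left with a single library is assumed there to vary like the others. Among the single genes named, the log2 fold changes of cdon (-0.51 to 0.13), col8a1a (-3.23 to 2.34) and tbxta (-3.34 to 1.497), muscle minus treated crest, turned sign over the libraries left out, each without cyclopamine replicate 4. The cause of these moves was not tested.

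No paired analysis was possible because slow muscle carries the replicate numbers 1 and 2 and cyclopamine crest 3 and 4. A replicate block for the numbers that slow muscle and untreated crest share gave 112 and 65 calls against cyclopamine crest, 161 and 81 against untreated crest and 0 and 0 between the crest groups. Deviations of same-numbered libraries of muscle and untreated crest had a correlation of 0.0106. With 2 libraries a group this cannot tell whether same-numbered libraries came from the same embryos. With 2 libraries a group, the depth of 15355583 to 26441238 counts sets a floor of 0.127 to 0.177 CPM, and values near it show no difference.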

Other observations

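Of the 244 genes called higher in slow muscle 181 were in none of the gene lists, and of the 141 called lower 107 were in none. Besides ACTC1, which is in none of the lists and is described above, 10 abundant genes of each, chosen after their values were seen, are described here. Muscle and cytoskeleton genes led the higher ones. The tropomyosin gene tpm3 stood at 5902 and 2544 CPM in muscle against 412 and 415 CPM in treated crest. The filamin gene flncb stood at 3032 and 2764 CPM against 262 and 271 CPM and xirp1, which encodes an actin-binding protein of striated muscle, at 1432 and 1046 CPM against 2.54 and 7.05 CPM. Their edgeR adjusted p were 0.0417, 0.0184 and 0.0155. The sarcalumenin gene srl, a calcium-binding protein gene of the sarcoplasmic reticulum, stood at 2290.0 and 953 CPM against 32.1 and 7.42 CPM, and txlnba at 1934 and 1311 CPM against 47.2 and 14.8 CPM (adjusted p = 0.0402 and 0.0375 in edgeR). The others were the matrix genes efemp2a and frem3, the tensin gene tns2b, the apolipoprotein gene apoeb and the profilin gene pfn1. Their log2 fold changes, muscle minus treated crest, were 5.89 ± 0.61, 4.61 ± 0.48, 8.38 ± 1.04, 4.35 ± 0.71 and 3.34 ± 0.47 (adjusted p = 0.0192, 0.0193, 0.0276, 0.0461 and 0.0379 in edgeR).

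Cytoskeleton and nucleotide synthesis genes were among the most abundant lower ones. marcksl1b, which encodes an actin-regulating membrane protein, stood at 121 and 159 CPM in muscle against 1452 and 1791 CPM in treated crest (log2 fold change -3.53 ± 0.36, adjusted p = 0.0192 in edgeR), and the actin-bundling fascin gene fscn1a at 188 and 217 CPM against 977 and 1602 CPM (log2 fold change -2.67 ± 0.38, adjusted p = 0.0379 in edgeR). cad, the gene for the enzyme that starts pyrimidine synthesis, stood at 84.4 and 113 CPM against 625 and 916 CPM (adjusted p = 0.0272 in edgeR). The transporter gene slc15a2 showed the widest gap of the 10, at 6.59 and 8.24 CPM against 665 and 424 CPM, and untreated crest stood at 419 and 344 CPM (muscle minus treated crest, adjusted p = 0.0141 in edgeR). pcdh2g28, cep170aa, slc1a3a, coro1ca, nap1l1 and dlc1 were the others, with log2 fold changes of -2.20 ± 0.36, -3.61 ± 0.50, -2.23 ± 0.38, -1.90 ± 0.30, -1.75 ± 0.29 and -2.42 ± 0.39 (adjusted p = 0.0447, 0.0375, 0.049, 0.0438, 0.0461 and 0.0451 in edgeR).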
